A study of Homo sapiens with 6 samples.

Results

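The genes described here encode factors that hold RNA polymerase II shortly after it has started a transcript, or that carry it through the gene. They are the 4 NELF subunit genes NELFA, NELFB, NELFCD and NELFE, the DSIF genes SUPT4H1 and SUPT5H, the elongation factor genes SUPT6H and TCEA1, and the kinase genes CDK12 and CDK13. These 10 genes were taken by symbol from the 35716 Ensembl genes of the count table, and each matched 1 row. Polyadenylated RNA was sequenced from MIA PaCa-2 cells, a long-established line grown from a human pancreatic carcinoma, whose genotype is given as WT in both groups. One group of 3 libraries came from cells treated with 10 nM triptolide for 24 h, and the other group of 3 came from cells without treatment, kept for 24 h in DMEM with 10% serum. Nothing in the labels ties the 3 libraries of each group to separate cultures. The p-values therefore rest on the spread between these libraries alone, which may be technical.

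RNA polymerase II needs TFIIH to open promoter DNA, and triptolide, a diterpenoid of Tripterygium wilfordii, binds the XPB subunit of TFIIH. After initiation, DSIF and NELF hold the polymerase close to the promoter. The kinase P-TEFb then phosphorylates NELF, DSIF and the polymerase, upon which NELF leaves and DSIF stays on as a positive elongation factor. SPT6, the product of SUPT6H, is a histone chaperone that travels with the polymerase, and TFIIS, from TCEA1, lets a backtracked polymerase resume. CDK12 and CDK13 pair with cyclin K and phosphorylate the C-terminal domain of the polymerase farther into genes, and loss of CDK12 is known to lower the expression of long DNA repair genes.

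None of the 10 genes was called changed with triptolide. Of the 10, 8 passed the filter on low counts and were tested, and 0 rose and 0 fell at an edgeR adjusted p under 0.05 (0 of 8 were also called in DESeq2 and in limma-voom). Over all 15202 genes tested, 15.9% were called, 10.0% higher and 5.82% lower with triptolide. At an unadjusted p under 0.05 the count was also 0 of 8, against 30.9% of all genes. That count was 2 lower without triptolide replicate 1, and 1 higher without triptolide replicate 2, with library totals alone and with genes averaging 5 CPM or more. It was 1 lower with the GC offset, and 3 lower without triptolide replicate 1 and untreated replicate 3 together. Triptolide and untreated libraries did not overlap for 1 of the 8, SUPT6H, against 36.7% of all genes. The median log2 fold change of the 8 was -0.01, against -0.004 over all genes tested. Log2 fold changes were above 0 for NELFE, SUPT5H, SUPT6H and CDK13 and below 0 for NELFA, NELFB, TCEA1 and CDK12. NELFA and NELFB lay above 0 with scaling on ribosomal protein genes, NELFA also when only genes averaging 5 CPM or more were kept, and NELFE below 0 with an offset for GC content. The 95% intervals of all 8 folds lay within 2-fold in either direction, from 0.653 at the lowest bound (TCEA1) to 1.61 at the highest (SUPT5H). Those of SUPT5H, SUPT6H and TCEA1 reached past 1.5-fold, so a change of that size lay within the error for these 3 genes. NELFCD and SUPT4H1 did not pass the filter on low counts, and with no such filter neither was called. Each value is a share of its library, which cannot show whether cells held more or less mRNA in all. In such bulk samples fewer cells of a type and less RNA per cell cannot be told apart.

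Total counts were 16302961, 22549382 and 23262713 in triptolide replicates 1, 2 and 3 and 17566458, 18215007 and 19600354 in untreated replicates 1, 2 and 3. No pair of libraries differed by as little as sampling noise, the closest being untreated replicates 1 and 2 (chi-square over degrees of freedom 5.46). Triptolide replicate 3 and untreated replicate 1 differed by 31.2 in this measure. Within groups, only that closest pair and triptolide replicates 2 and 3 (29.1) differed less. The other pairs within groups ranged from 33.7 to 70.3. The count-weighted GC content of the tested genes was 51.8% in triptolide replicate 1, against 49.9% to 50.5% in the other 5 libraries. Of 10 carcinoma line markers, 8 were tested, 0 rose and 2 fell, and the list summed to 3370.0 to 4070.0 CPM with triptolide, against 4520.0 to 6640.0 CPM untreated. KRT18, a keratin gene of simple epithelia, averaged 503 ± 57.0 CPM with triptolide and 869.9 ± 168 CPM untreated (fold 0.578, edgeR adjusted p = 0.0123), while EPCAM had 3 counts in all triptolide and 4 in all untreated libraries. The pancreatic acinar and endocrine genes PRSS1, CELA3A and SST had at most 3 counts over all 6 libraries. Genes of placental trophoblast, 32 on a list, summed to at least 622 CPM in each triptolide library, against 33.5 to 36.4 CPM in the untreated ones. Of these, 23 were tested, 19 rose and 0 fell. Of 13 blood and stromal markers, 6 were tested, 5 rose and 0 fell (15.2 to 27.6 CPM in sum with triptolide, 3.21 to 4.54 untreated). Of 15 fibroblast markers, 13 were tested, 0 rose and 9 fell (351 to 446 CPM in sum with triptolide, 635 to 788 untreated). The largest part of these sums was COL1A2, not called, at a mean of 329 CPM with triptolide and 323 CPM untreated. The sums therefore hide larger falls, such as that of COL1A1, which averaged 2.83 CPM with triptolide and 61.1 CPM untreated. None of the genes on these 3 lists was at 3 counts or fewer over the 6 libraries together. The part of these markers in the values below was not tested. Without the genes of the 3 lists, the same genes of the wider list and 0 of the 8 were called. Over all genes there were then 1494 higher and 869 lower calls. Removing these genes leaves the counts of all other genes as they were, so it cannot show that part.

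Triptolide acts at promoters, so the sequence just before the start site is shown for 4 of the genes, 1 from each functional class. Each is the 200 bases before the first start site that RefSeq annotates, written 5′ to 3′ on the gene's strand. Capitals mark matches, on either strand, to TATAAA (the TATA box), GGGCGG (the GC box of SP factors), CCGGAAGT (an ETS site), AAGATGGC (a YY1 site) and TCTCGCGA (an element known from CpG island promoters).
NELFE promoter, GRCh38.p14 chr6:31958972-31959171, minus strand: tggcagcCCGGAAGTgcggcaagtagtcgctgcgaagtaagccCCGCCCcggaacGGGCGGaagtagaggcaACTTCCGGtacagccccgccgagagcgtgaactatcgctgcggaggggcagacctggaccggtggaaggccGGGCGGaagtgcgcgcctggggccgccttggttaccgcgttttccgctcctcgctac
SUPT5H promoter, GRCh38.p14 chr19:39445382-39445581, plus strand: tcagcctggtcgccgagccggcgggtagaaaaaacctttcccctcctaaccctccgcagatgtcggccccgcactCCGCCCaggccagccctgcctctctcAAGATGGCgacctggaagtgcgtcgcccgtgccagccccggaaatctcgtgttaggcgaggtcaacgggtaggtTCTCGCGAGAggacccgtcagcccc
SUPT6H promoter, GRCh38.p14 chr17:28662005-28662204, plus strand: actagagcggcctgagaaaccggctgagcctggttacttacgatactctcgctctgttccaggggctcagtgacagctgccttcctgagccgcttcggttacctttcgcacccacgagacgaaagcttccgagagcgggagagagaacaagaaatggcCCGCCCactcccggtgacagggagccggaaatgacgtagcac
CDK12 promoter, GRCh38.p14 chr17:39461286-39461485, plus strand: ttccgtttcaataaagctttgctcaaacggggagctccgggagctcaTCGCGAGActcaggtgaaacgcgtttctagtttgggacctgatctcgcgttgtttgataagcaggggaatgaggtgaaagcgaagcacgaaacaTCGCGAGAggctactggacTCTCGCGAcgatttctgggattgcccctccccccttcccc
CDK12 held TCTCGCGA or its reverse complement 3 times, and SUPT5H held both at a single overlapping position, TCTCGCGAGA. Of all 35116 promoter windows of this length in the RefSeq table, 0.906% held this motif. Among the 9 genes whose promoters were read, which leave out TCEA1, these 2 held it. NELFE held CCGGAAGT at 2 positions, and SUPT4H1 held it too, against 3.19% of all windows. SUPT5H alone of the 9 held AAGATGGC, against 1.1%. GGGCGG was present in 6 of the 9, namely NELFB, NELFCD, NELFE, SUPT4H1, SUPT5H and SUPT6H, against 40.1%. TATAAA was present in 0 of the 9, against 8.59% of all windows. NELFA and CDK13, of the same classes as NELFE and CDK12, held none of these motifs. The 4 sequences shown are thus all ones with a match. The motifs were chosen after these sequences had been read, so the shares are a description, and a match to letters is not a shown binding site.

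**Figure D1:**
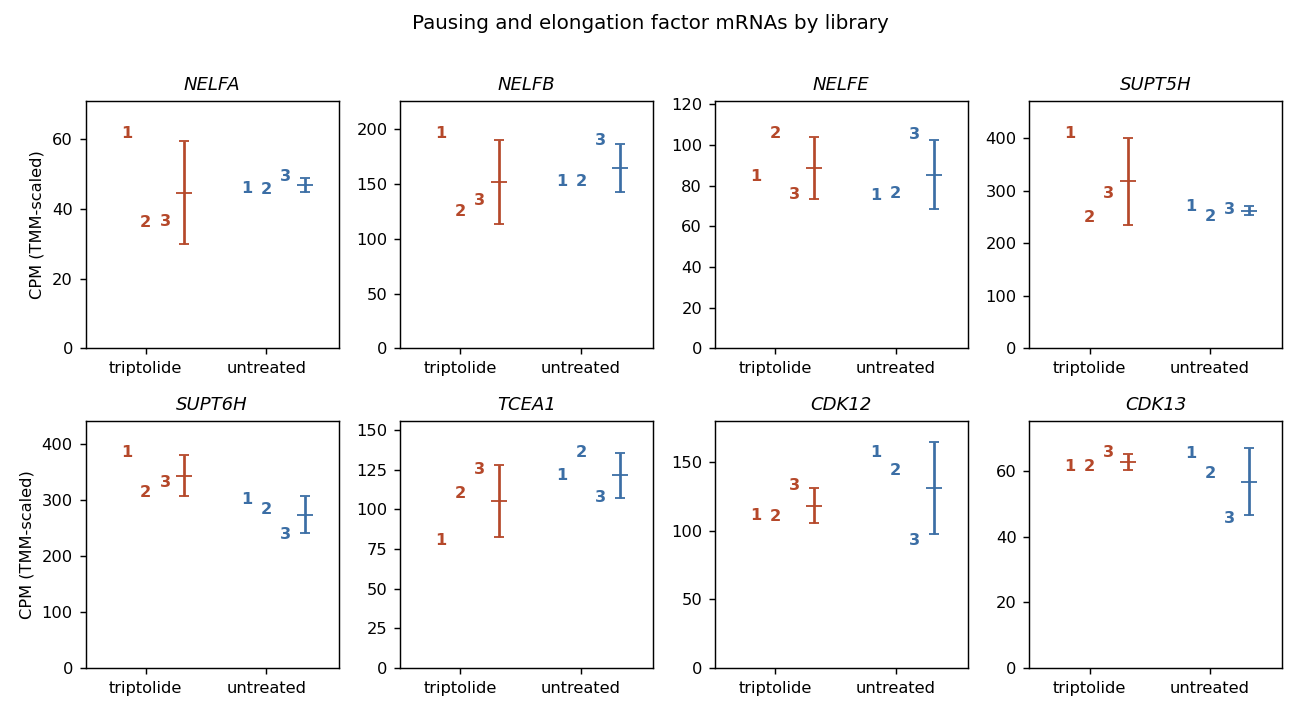
CPM (counts scaled by library size and TMM factors) of the 8 tested genes, 1 panel a gene, with triptolide left and untreated right. Digits are replicate numbers, and the horizontal mark and bar are the mean and SD of 3 libraries. The groups overlap in every panel except that of SUPT6H, where the triptolide libraries lie between 315 and 385 CPM and the untreated ones between 238 and 302 CPM.

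In the NELF complex, NELFA binds the polymerase, NELFB and NELFCD form its middle part, and NELFE carries an RNA-binding domain. NELFA (ENSG00000185049) had 61.7, 36.0 and 36.4 CPM in triptolide replicates 1, 2 and 3, against 45.8, 45.7 and 49.2 CPM in untreated replicates 1, 2 and 3. Triptolide replicate 1 stood above, and replicates 2 and 3 below, all untreated libraries. CPM are counts scaled by library size and TMM factors. The log2 fold change of NELFA was -0.07 ± 0.21 (SE; edgeR adjusted p = 0.852). NELFB (ENSG00000188986) had 196, 125 and 135 CPM with triptolide, against 152, 152 and 189 CPM untreated, with a log2 fold change of -0.11 ± 0.20 (adjusted p = 0.734). Again triptolide replicate 1 was the highest of its group and replicates 2 and 3 lay below every untreated library. NELFE (ENSG00000204356) had 84.5, 105.6 and 75.7 CPM with triptolide, against 74.9, 76.0 and 105 CPM untreated, with a log2 fold change of 0.06 ± 0.19 (adjusted p = 0.875). Triptolide replicate 2 and untreated replicate 3 were level at the top, and the other 4 libraries lay below them. Without triptolide replicate 1 and untreated replicate 3 together, a choice made after seeing the data, NELFA was called lower, with a log2 fold change of -0.33 (adjusted p = 0.0394).

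NELFCD (ENSG00000101158) had only 8, 3 and 4 counts in triptolide replicates 1, 2 and 3 and 5, 6 and 4 counts in untreated replicates 1, 2 and 3. That is 15 counts in each group, beside 2713 and 2534 counts of NELFA. SUPT4H1 (ENSG00000213246), which encodes SPT4, the small DSIF subunit, had 0 counts in every triptolide library and 1 count in all untreated libraries together, where a count of 0 in a library allows up to 3. Its partner gene SUPT5H had 19569 counts in the triptolide and 14164 in the untreated group. Both proteins are known as subunits that cells in general need, so these counts are given as what the table assigns to the genes, not as their expression. In GENCODE 29, 70.6% of the exon bases of SUPT4H1 also belong to exons of another gene on the same strand, among them the overlapping gene ENSG00000285897, while 0% of those of NELFCD do. The other 8 genes shared at most 3.75% of their exon bases in this way. How the authors' counting treated shared bases is not given in the sources used here, and its part in these counts was not tested.

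SUPT5H (ENSG00000196235) encodes SPT5, the large DSIF subunit that both pausing and elongation need. It had 409, 249.6 and 294 CPM in triptolide replicates 1, 2 and 3, against 269.5, 252 and 265 CPM in the untreated libraries. The untreated libraries were close together, with a coefficient of variation of 3.52%, while the triptolide libraries spread over 25.9%, with replicate 2 below all untreated libraries and replicates 1 and 3 above them. The log2 fold change was 0.28 ± 0.19 (adjusted p = 0.353). It was 0.0696 without triptolide replicate 1 and 0.43 without triptolide replicate 2, with no call in either (adjusted p = 0.755 and 0.135).

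SUPT6H (ENSG00000109111) came closest to a call among the 10 genes. It had 385, 315 and 331 CPM in triptolide replicates 1, 2 and 3, against 302, 283 and 238 CPM in untreated replicates 1, 2 and 3. All 3 triptolide libraries lay above all 3 untreated ones, which was so for 19.8% of all tested genes in this direction. The fold was 1.25 (95% interval 0.979 to 1.6), a log2 fold change of 0.32 ± 0.16 (adjusted p = 0.201, and 0.145 to 1.0 over the 18 alternatives). The 3 genes with the most similar pattern to SUPT6H over the 6 libraries, among 10288 averaging 5 CPM or more, were SUFU, FOXRED2 and KREMEN1. Their centred log2 CPM differed from that of SUPT6H by a root mean square of 0.0284, 0.0307 and 0.0409. TCEA1 (ENSG00000187735) had 80.4, 110.2 and 125 CPM with triptolide, against 121, 135.5 and 107 CPM untreated, with a log2 fold change of -0.21 ± 0.19 (adjusted p = 0.496). Without triptolide replicate 1 it was -0.0305 (adjusted p = 0.91), and without triptolide replicate 3 it was -0.35 (adjusted p = 0.357). The lowest value of TCEA1 was in triptolide replicate 1, where NELFA, NELFB, SUPT5H and SUPT6H had their highest.

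CDK12 (ENSG00000167258) had 111, 110.5 and 133 CPM in triptolide replicates 1, 2 and 3, against 157, 144 and 92.9 CPM in untreated replicates 1, 2 and 3. Untreated replicates 1 and 2 were above all triptolide libraries and untreated replicate 3 was below them, with a log2 fold change of -0.15 ± 0.20 (adjusted p = 0.656). It was -0.0107 without untreated replicate 1 (adjusted p = 0.985) and -0.35 without untreated replicate 3 (adjusted p = 0.182). CDK13 (ENSG00000065883) had 61.3, 61.5 and 65.6 CPM with triptolide, against 65.5, 59.3 and 45.7 CPM untreated, with a log2 fold change of 0.14 ± 0.17 (adjusted p = 0.611). Its triptolide libraries varied by 3.83%, the lowest coefficient of variation of any of the 8 genes in that group, and its untreated libraries by 17.9%. Without untreated replicate 3 the log2 fold change of CDK13 was -0.00057. CCNK, the gene of their shared cyclin, had 17.3, 22.5 and 22.7 CPM with triptolide and 23.2, 20.8 and 14.0 CPM untreated (adjusted p = 0.768; singled out after its values were seen), again with its lowest untreated value in replicate 3.

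Ratios of partner mRNAs within a library do not depend on the scaling between libraries. They could be formed for 4 of 8 planned pairs, since the other pairs hold NELFCD or SUPT4H1. The log2 ratio of CDK12 to CDK13 counts was 0.857, 0.846 and 1.02 in triptolide replicates 1, 2 and 3, against 1.26, 1.28 and 1.03 in untreated replicates 1, 2 and 3. The groups did not overlap, although triptolide replicate 3 and untreated replicate 3 were nearly level, and the means differed by -0.28. An exact two-sided permutation test gave p = 0.1, the smallest that 3 against 3 libraries allow, and an adjusted p of 0.4 over the 4 ratios. The ratio of NELFA to NELFB was -1.78 ± 0.11 with triptolide and -1.80 ± 0.12 untreated (log2, SD, n = 3 each; exact permutation p = 1). The ratios of NELFA and of NELFB to NELFE spread more widely with triptolide, with SDs of 0.55 and 0.49, than untreated, with SDs of 0.21 and 0.09. Both were highest in triptolide replicate 1 and lowest in triptolide replicate 2, and their means differed by -0.18 and -0.19 between groups (exact permutation p = 0.7 for each).

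**Figure D2:**
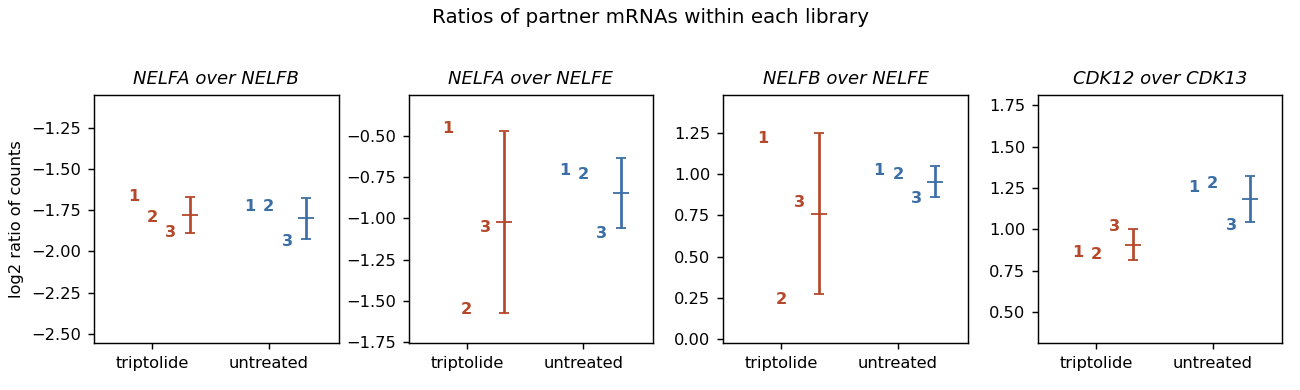
Log2 ratio of the counts of 2 partner genes in each library, with triptolide left and untreated right; digits are replicate numbers, the mark and bar are the mean and SD of 3 libraries, and each panel spans the same 1.5 log2 units, not starting at 0. In the CDK12 over CDK13 panel the triptolide libraries lie at 0.846 to 1.02 and the untreated ones at 1.03 to 1.28.

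Levels can be set between genes only per length. Per kb of GENCODE 29 exon sequence, which counts the exons of all isoforms and so understates genes with long rare ones, NELFB was highest, at 56.2 ± 14.3 CPM per kb with triptolide and 60.9 ± 7.98 CPM per kb untreated (SD, n = 3 each). SUPT5H had 37.1 ± 9.6 CPM per kb with triptolide and 30.6 ± 1.08 untreated, and NELFE 32.6 ± 5.66 with triptolide and 31.4 ± 6.26 untreated. SUPT6H had 32.4 ± 3.45 with triptolide and 25.8 ± 3.08 untreated, and TCEA1 23.8 ± 5.16 with triptolide and 27.5 ± 3.2 untreated. In the order of levels, neighbours from NELFB to SUPT6H overlapped in the triptolide libraries, and neighbours from NELFE to SUPT6H overlapped in the untreated ones. CDK12 followed at 9.25 ± 0.99 CPM per kb with triptolide and 10.3 ± 2.63 untreated, its range overlapping that of NELFA, at 7.53 ± 2.48 with triptolide and 7.9 ± 0.335 untreated. CDK13, with the longest exon sequence at 25.1 kb, was lowest, at 2.5 ± 0.096 with triptolide and 2.26 ± 0.404 untreated, below the other 7 genes in both groups. NELFA thus stood below NELFB and NELFE per kb in all 6 libraries.

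The spread within groups differed by gene, and 2 libraries stood apart. In triptolide replicate 1, the log2 CPM of NELFA, NELFB and SUPT5H, whose longest transcripts hold 61.4%, 64.4% and 58.2% GC, exceeded the mean of replicates 2 and 3 by 0.77, 0.60 and 0.59. That of TCEA1, with 38.1% GC, was lower by a log2 difference of -0.55. Over the 8 genes, this departure had a Pearson r of 0.9 with GC content, and over all 15077 tested genes with annotated values an r of 0.71. In untreated replicate 3, CDK12, CDK13 and SUPT6H, the 3 genes with the longest exon sequence, departed from the mean of replicates 1 and 2 by -0.69, -0.45 and -0.30. NELFE and NELFB, the 2 shortest of the 8 at 2.72 and 2.7 kb, departed by 0.475 and 0.317. The Pearson r with log2 exon length was -0.82 over the 8 genes and -0.34 over all 15077. The same departure had an r of 0.75 with GC content over the 8 genes and 0.24 over all 15077. These correlations are across genes of the same libraries, which are not independent replicates, and are a description. The departures reached 0.77 log2 units, while the largest difference between groups among the 8 genes was 0.32. The part of GC content and length in the group values was not tested beyond the GC offset, under which 0 of the 8 genes were called. Their log2 fold changes moved under it, to -0.22 for NELFA, -0.26 for NELFB, -0.03 for NELFE and 0.15 for SUPT5H. They were 0.24 for SUPT6H, -0.02 for TCEA1, -0.08 for CDK12 and 0.19 for CDK13.

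**Figure D3:**
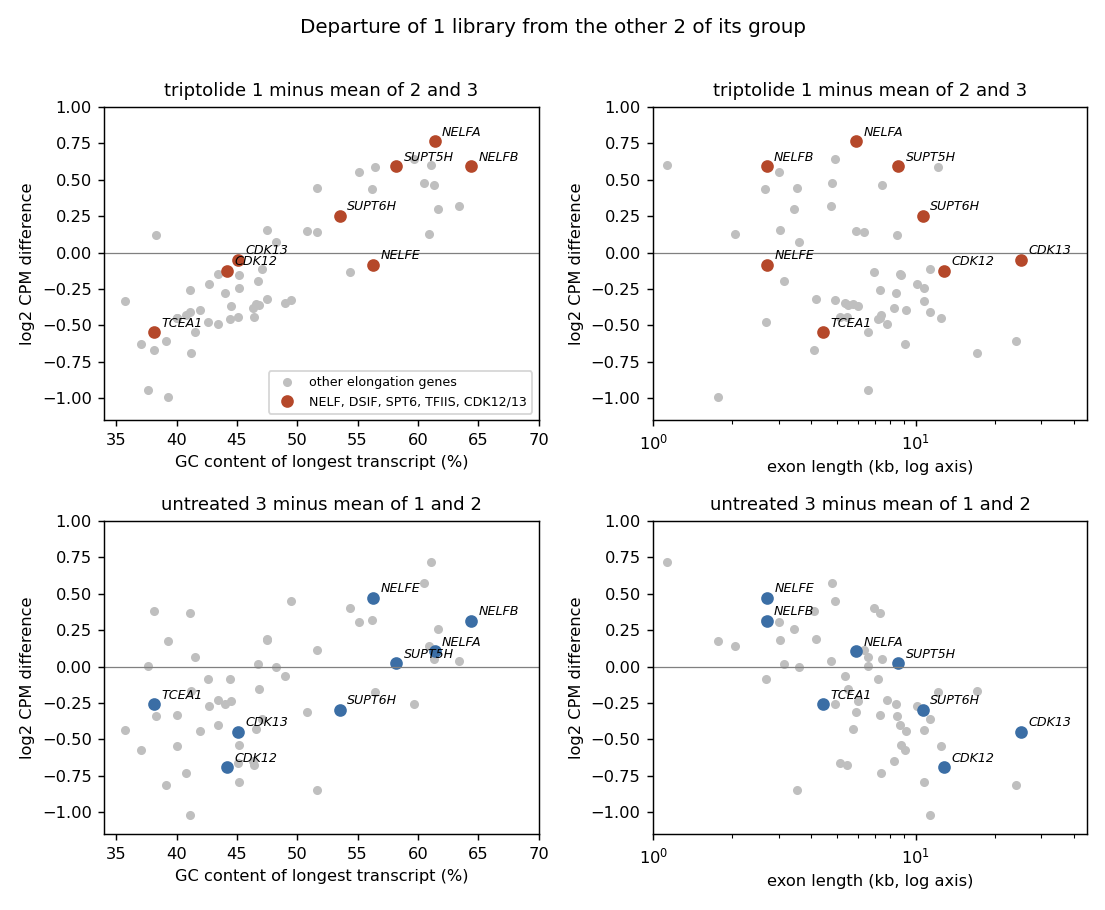
Log2 CPM of triptolide replicate 1 minus the mean of triptolide replicates 2 and 3 (top) and of untreated replicate 3 minus the mean of untreated replicates 1 and 2 (bottom), against GC content in percent (left) and exon length in kb on a log axis (right); coloured points are the 8 tested genes and grey points the 50 other elongation genes and CDK12-dependent repair genes. NELFA, NELFB and SUPT5H lie highest of the coloured points in the top left panel, and CDK12 lies lowest of them in both bottom panels.

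Of 52 other genes, which act in elongation or are repair genes known to need CDK12, 50 were tested, 5 rose and 1 fell, so that 12% were called, against 15.9% of all genes, and their median log2 fold change was -0.02. Of the 6 calls, 4 were genes of 7SK-associated proteins. P-TEFb is the kinase CDK9 with a cyclin from CCNT1 or CCNT2, and it is kept inactive by HEXIM proteins on 7SK RNA, which MEPCE caps and LARP7 stabilises. Of HEXIM1, HEXIM2, MEPCE and LARP7, 3 rose and 1 fell, while 0 of CDK9, CCNT1 and CCNT2 were called. HEXIM1 had 254, 235 and 248 CPM in triptolide replicates 1, 2 and 3, against 160.0, 149 and 154 CPM untreated. The fold was 1.59 (95% interval 1.28 to 1.99; adjusted p = 0.00913). HEXIM2 had 6.55, 6.3 and 5.67 CPM with triptolide, against 2.58, 2.22 and 2.64 CPM untreated, a fold of 2.48 (95% interval 1.81 to 3.41; adjusted p = 0.00174). MEPCE had 285, 237 and 225 CPM with triptolide, against 135, 131 and 159.5 CPM untreated, a fold of 1.75 (95% interval 1.37 to 2.25; adjusted p = 0.00658). The groups were well apart for these 3 genes, and HEXIM2 passed in all 17 alternatives in which it could be tested. HEXIM1 and MEPCE passed in 16 of 18, failing against a fold of 1.5 (glmTreat) and without untreated replicate 2, where the adjusted p was 0.0788 for HEXIM1 and 0.0535 for MEPCE.

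**Figure D4:**
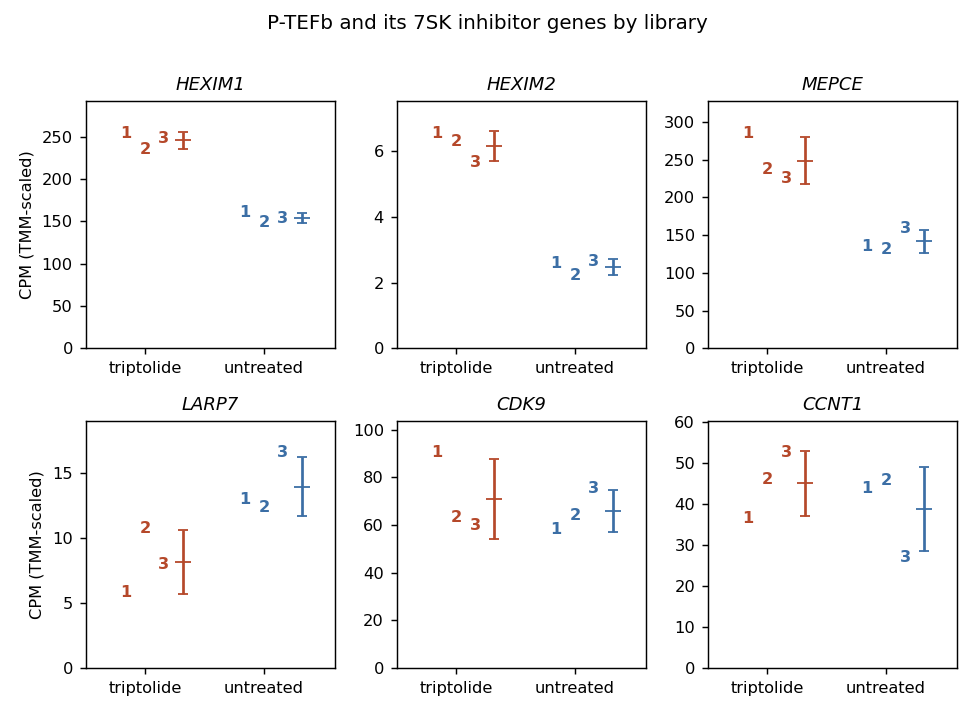
CPM of HEXIM1, HEXIM2, MEPCE and LARP7, which act in the 7SK complex, and of CDK9 and CCNT1, which form P-TEFb, with triptolide left and untreated right; digits are replicate numbers, and the mark and bar are the mean and SD of 3 libraries. HEXIM1 lies at 235 to 254 CPM with triptolide and at 149 to 160.0 CPM untreated, while the groups of CDK9 and CCNT1 overlap.

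LARP7 had 5.79, 10.7 and 7.99 CPM with triptolide, against 13.01, 12.4 and 16.6 CPM untreated, a fold of 0.587 (95% interval 0.412 to 0.837; adjusted p = 0.0446). That call passed in 8 of 18 alternatives, and it was lost when any single library except triptolide replicate 2 was left out (adjusted p = 0.0687 to 0.126). With ribosomal protein scaling its adjusted p was 0.295, and without triptolide replicate 1 and untreated replicate 3 together 0.0901. CDK9 had 90.3, 63.0 and 59.8 CPM with triptolide and 57.9, 64.1 and 75.5 CPM untreated (adjusted p = 0.75). CCNT1 averaged 44.96 ± 8.02 CPM with triptolide and 38.7 ± 10.3 CPM untreated (SD, n = 3 each; adjusted p = 0.546).

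In the super elongation complex, which carries P-TEFb to genes, 1 of 7 tested genes rose and 0 fell. That gene, ELL2, which raises the elongation rate of the polymerase, had 6.55, 8.79 and 9.15 CPM with triptolide, against 5.1, 5.49 and 4.19 CPM untreated (fold 1.66, adjusted p = 0.0365). Its call was lost without triptolide replicates 2 or 3 or any untreated library (adjusted p = 0.0766 to 0.138), with the replicate block (adjusted p = 0.0508), with ribosomal protein scaling (adjusted p = 0.116) and with glmTreat against a fold of 1.5 (adjusted p = 0.62). Of 5 TFIIS paralogs and elongin genes, 1 rose and 0 fell. TCEA3, a TFIIS paralog of TCEA1, had 44 counts in the triptolide and 12 counts in the untreated libraries (fold 3.09, adjusted p = 0.0314). Its call was lost without any single library except triptolide replicate 3 (adjusted p = 0.0585 to 0.108), in DESeq2 (adjusted p = 0.0759), with glmTreat against a fold of 1.5 (adjusted p = 0.131), and without triptolide replicate 1 and untreated replicate 3 together (adjusted p = 0.113).

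Of 6 genes of the PAF1 complex, which rides with elongating polymerase, 0 were called, and PAF1 itself averaged 115 ± 21.4 CPM with triptolide and 102 ± 13.7 CPM untreated (adjusted p = 0.569). Of 12 partners, readers and phosphatases of the C-terminal domain, 0 were called, and SSU72, a phosphatase gene, averaged 160.2 ± 27.9 CPM with triptolide and 194 ± 32.4 CPM untreated (adjusted p = 0.336). Among 4 genes for passage through nucleosomes, 0 were called, although 3 had all triptolide libraries below all untreated ones, against 16.9% of all tested genes. SUPT16H, the large subunit of the histone chaperone FACT, had 241, 349 and 315 CPM in triptolide replicates 1, 2 and 3, against 436, 430.2 and 409 CPM untreated (fold 0.71, adjusted p = 0.07). IWS1, whose product binds SPT6, had 40.3, 50.8 and 49.6 CPM with triptolide, against 66.9, 61.6 and 73.4 CPM untreated (fold 0.698, adjusted p = 0.0521, singled out after its values were seen). Both were called lower in DESeq2 and with the GC offset. Of 8 repair genes known to need CDK12, 0 were called, 2 had log2 fold changes above 0 and 6 below, with a median of -0.10. FANCI, the most abundant, averaged 82.8 ± 15.6 CPM with triptolide and 81.0 ± 7.14 CPM untreated (adjusted p = 0.922). CHEK1, a checkpoint kinase gene, had 17.95, 27.3 and 25.2 CPM with triptolide, against 34.1, 31.9 and 34.5 CPM untreated (fold 0.702, adjusted p = 0.0822). It was the only 1 of the 8 repair genes whose groups did not overlap, and it was called lower with the GC offset. RAD51D was not called with all 6 libraries, where its groups overlapped (fold 0.779, edgeR adjusted p = 0.1995). It was called lower without triptolide replicate 1 and untreated replicate 3 together, a choice made after seeing the data. In that setting 1841 of all 15628 tested genes were called lower.

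**Figure D5:**
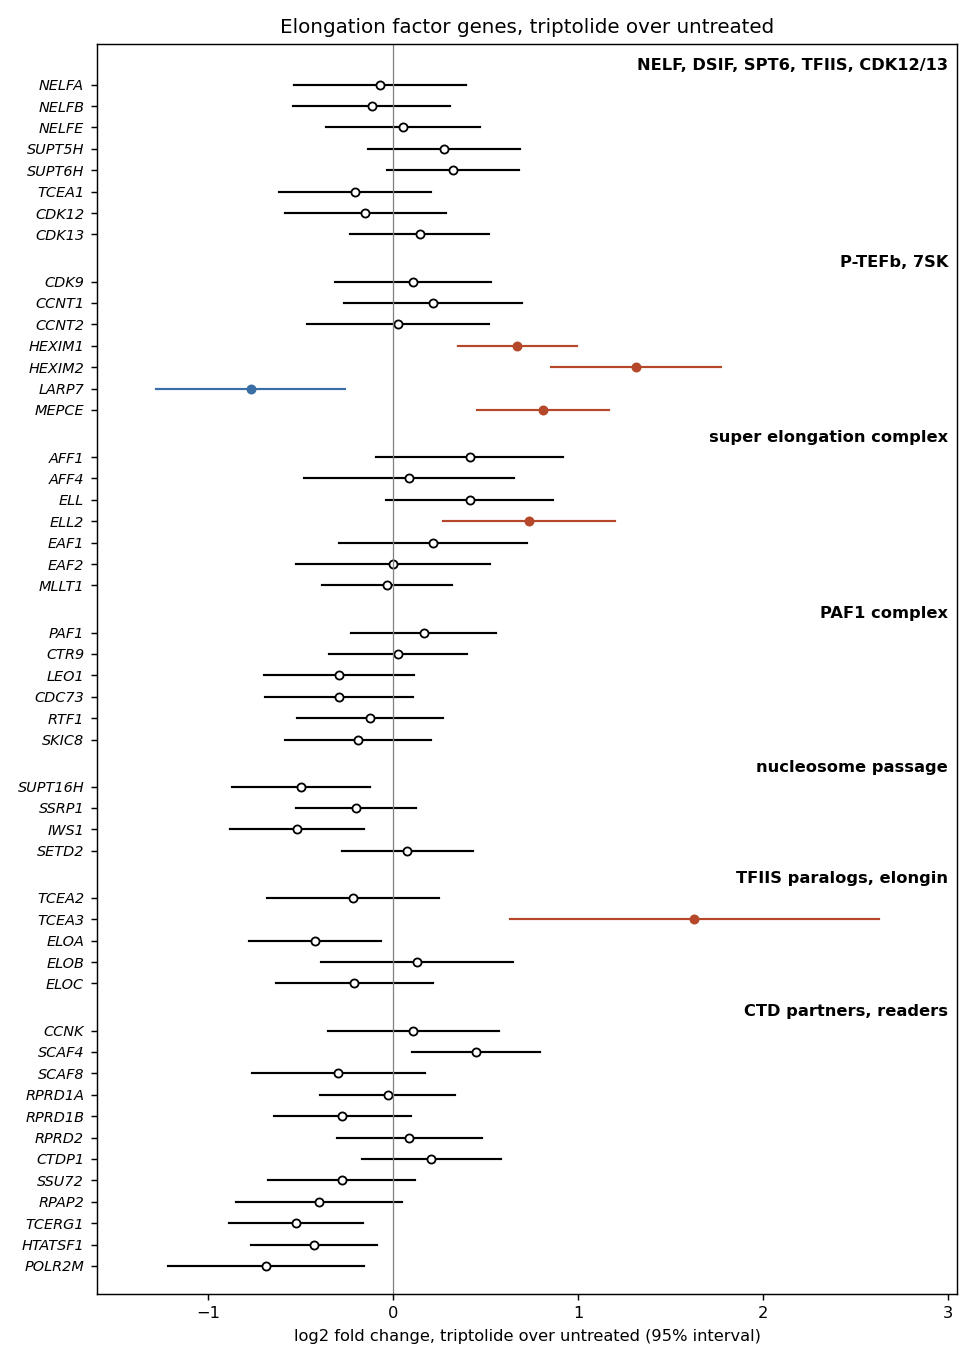
Log2 fold change, triptolide over untreated, with its 95% interval for the 8 tested pausing and elongation factor genes and for other tested elongation genes by complex; filled points were called (red higher, blue lower) and open points were not. The 8 genes at the top lie between -0.21 and 0.32, and HEXIM1, HEXIM2, MEPCE, ELL2 and TCEA3 lie to the right and LARP7 to the left.

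Without a strand setting in the sources used here, reads of overlapping antisense genes cannot be told apart. In GENCODE 29, NELFE overlaps the protein-coding gene SKIC2 and SUPT6H overlaps SDF2 on the opposite strand. Noncoding genes or a pseudogene on the opposite strand overlap SUPT4H1, SUPT6H, TCEA1, CDK12 and CDK13. Of all calls over the 15202 genes 63.3% were higher with triptolide, against 73.8% with library totals alone, 90% with ribosomal protein scaling and 53.2% with the GC offset. The count of 0 called members held under each of these.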

How the data were processed

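The authors deposited whole-number counts per Ensembl gene for the 6 libraries, with no sign of normalization. Per the submitters' processing notes, HISAT2 and featureCounts were used. Which versions, genome build, annotation and strand setting they used is not given in the sources used here. Exon lengths and GC content came from GENCODE 29 by Ensembl ID, and promoters from RefSeq, GRCh38.p14. Library totals ran between 16302961 and 23262713 counts. Genes kept by filterByExpr were normalized with TMM factors. The test was edgeR 4.0.16's quasi-likelihood test in R 4.3.3, fitted on group alone, with p-values adjusted by Benjamini-Hochberg across the 15202 genes tested. A gene rose or fell at an adjusted p under 0.05. Standard errors were derived from the fold change and its F statistic. Ratios used 0.5 added to each count, and 4 of 8 planned pairs were left out because NELFCD and SUPT4H1 had too few counts. Alternatives used DESeq2 1.42.0 and limma 3.58.1, among other scalings, filters and left-out libraries. The edgeR step was tested on simulated data. Members and lists were chosen with earlier results of these data known. Named genes were all members, every called gene of the wider list, the most abundant gene of each sub-list without a call, and the 3 patterns most like that of SUPT6H. CDK9, CCNT1, CCNK, IWS1, CHEK1 and RAD51D lie outside this rule and were chosen after their values were seen. The values of 1 gene of the wider list are not reported here. Figures used matplotlib 3.10.9.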

Additional observations from a re-analysis of the deposited data

How the results depend on the processing

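Called members numbered 0 higher and 0 lower under 17 of 18 alternatives, and 0 to 0 with any single library left out. Without triptolide replicate 1 and untreated replicate 3 together, chosen after seeing the data, 1 was lower (NELFA), with 5 higher and 7 lower on the wider list and 1950 higher and 1841 lower over all genes. The wider list's 5 higher became 3 among genes averaging 5 CPM or more, where HEXIM2 and TCEA3 were not tested. They became 1 with glmTreat against a fold of 1.5, and 1 to 4 with 1 library left out. Its 1 lower became 0 with library totals, ribosomal protein scaling, the 5 CPM filter and glmTreat, 3 with no filter, 5 in DESeq2, 8 with the GC offset, and 0 to 2 with 1 library left out. Over all genes, 1527 higher became 584 with the 5 CPM filter and 608 with glmTreat, and 953 to 1580 with 1 library left out. The 884 lower became 133 with ribosomal scaling, 336 with the 5 CPM filter, 135 with glmTreat, 1812 with the GC offset, and 407 to 1034 with 1 library left out, where the lowest counts, 407 and 953, were without untreated replicate 2. The median log2 fold change of all genes, -0.004, was 0.17 with ribosomal scaling and 0.13 with no filter. The cause of these shifts was not tested.

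Signs turned for NELFA (0.0898 with ribosomal scaling, 0.0088 with the 5 CPM filter), NELFB (0.0718 with ribosomal scaling) and NELFE (-0.0265 with the GC offset). With 1 library left out, log2 fold changes ran from -0.36 to 0.0657 for NELFA, -0.32 to 0.0134 for NELFB, -0.0818 to 0.22 for NELFE and -0.00057 to 0.25 for CDK13. NELFE reached 0.27 without triptolide replicate 1 and untreated replicate 3. Ratio differences ran from -0.052 to 0.0696 for NELFA over NELFB, -0.46 to 0.0911 for NELFA over NELFE and -0.42 to 0.0656 for NELFB over NELFE. SUPT5H, SUPT6H, TCEA1 and CDK12 kept direction and were not called under all 18, but their size moved with 1 library left out: 0.0696 to 0.43 for SUPT5H, 0.22 to 0.39 for SUPT6H, -0.35 to -0.0305 for TCEA1 and -0.35 to -0.0107 for CDK12.

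Replicate numbers are not stated to pair the samples, and deviations of same-numbered libraries correlated at 0.0286, -0.0411 and -0.439. With the replicate block, 0 members, 4 higher and 2 lower wider genes (ELL2 lost, POLR2M added lower), and 1523 higher and 856 lower genes overall were called. NELFCD and SUPT4H1, with at most 8 counts in a library, failed the low-count filter; with no filter 0 of 10 members were called. Intervals cover the spread between libraries only.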

Other observations

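Of 16180 protein-coding genes of the table that share under 10% of their exon bases with another gene on the same strand in GENCODE 29, 71.4% passed the low-count filter, with a median of 1180 counts over the 6 libraries. Of 422 that share at least 50%, as SUPT4H1 does, 30.3% passed, with a median of 14 counts. NELFCD shares 0% and had 30 counts over the 6 libraries. The part of exon sharing in the counts of either gene was not tested.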
